A study of Mus musculus and Homo sapiens with 59 samples.

Results

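Calcium-free culture medium was compared with ordinary medium in resting mouse fibroblasts, with no treatment added in either. The comparison rests on 4 of the 59 libraries of the series, chosen by their labels: 2 from calcium-free DMEM and 2 from complete DMEM. All 4 came from NIH3T3 cells, an immortalized mouse embryonic fibroblast line, that carried a construct of human MLKL residues 1 to 181 fused to a dimerizable 2Fv domain. MLKL is the protein that opens the plasma membrane in necroptosis, and this construct does so when the dimerizer AP20187 is added, which the wider series on plasma membrane integrity used. Neither group here received AP20187, so both carried the construct in its undimerized form. How long the cells spent in calcium-free medium is not given in the labels. Nor is it given whether the line is a clone or whether the replicates were separate cultures. The p-values here measure the spread between replicate libraries, pooled over 35 NIH3T3 libraries in 18 groups, and that spread may be technical. Those groups include AP20187-treated cells, p65 knockout (p65ko) cells and cells labelled siPKC, which enter only through this spread. For reference, 10 further untreated NIH3T3 libraries in complete medium were used. They were parental cells, cells with a GSDMD construct, the controls of the digitonin experiment, and MLKL cells of the control-siRNA (siCTR) and noko groups, with 2 libraries each.

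Extracellular calcium has several textbook roles in a fibroblast. It enters through store-operated and other channels, and cytosolic calcium acts on the phosphatase calcineurin and on kinases that switch on NFAT- and CREB-dependent genes such as the Nr4a family. It also holds cadherins in their adhesive shape, supports integrin contacts and refills the endoplasmic reticulum, where chaperones such as calreticulin bind it. Immediate early genes, among them Egr1, Fos and Jun, respond to growth factor, ERK and stress kinase signals without new protein synthesis.

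The libraries were poly(A)-selected, and levels are TPM, transcript abundances scaled for length and library total, which sum to between 999969 and 999982 in each of the 4 libraries. The read depth is unknown from these values, so no counting interval can be given. Levels of replicate libraries correlated across genes at r = 0.993 in complete and 0.992 in calcium-free medium, on the log2(TPM + 1) scale. Of 12 fibroblast markers, 11 were above 1 TPM, the exception being Lum, and their summed level was 15732 to 15786 TPM in complete and 17337 to 17396 TPM in calcium-free medium. All 7 epithelial markers, 5 of 6 endothelial and 4 of 5 adipocyte markers were under 1 TPM in all 4 libraries. Of 7 macrophage markers, Ptprc, Adgre1 and Fcer1g were under 1 TPM, and the list summed to 24.2 to 24.3 TPM in complete and 23.5 to 24.6 TPM in calcium-free medium. In such bulk samples, a change in the share of cells that express a gene and a change in RNA per cell cannot be told apart.

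A small set of genes differed strongly between the media and many more slightly. Calcium itself, any other difference between the media and the change of medium cannot be told apart here. Of 11587 genes tested, 991 were higher (8.55%) and 3214 lower (27.7%) in calcium-free medium, 36.3% in all (limma, Benjamini-Hochberg adjusted p under 0.05, with fold changes on the log2(TPM + 1) scale). The libraries of the groups did not overlap for 22.1% of tested genes as higher and 48.3% as lower. At least 2-fold were 72 higher and 72 lower, or 40 and 64 without the rows of small nucleolar RNAs and microRNAs. The excess of small falls depended on scaling. The median log2 fold change over all tested genes was -0.07 as deposited and 0.04 after each library was centred on its median, which gave 2447 higher (21.1%) and 1879 lower (16.2%). Quantile normalization gave 1959 higher (16.9%) and 2203 lower (19%). Counts of list members below are therefore given with those after centring.

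**Figure D1:**
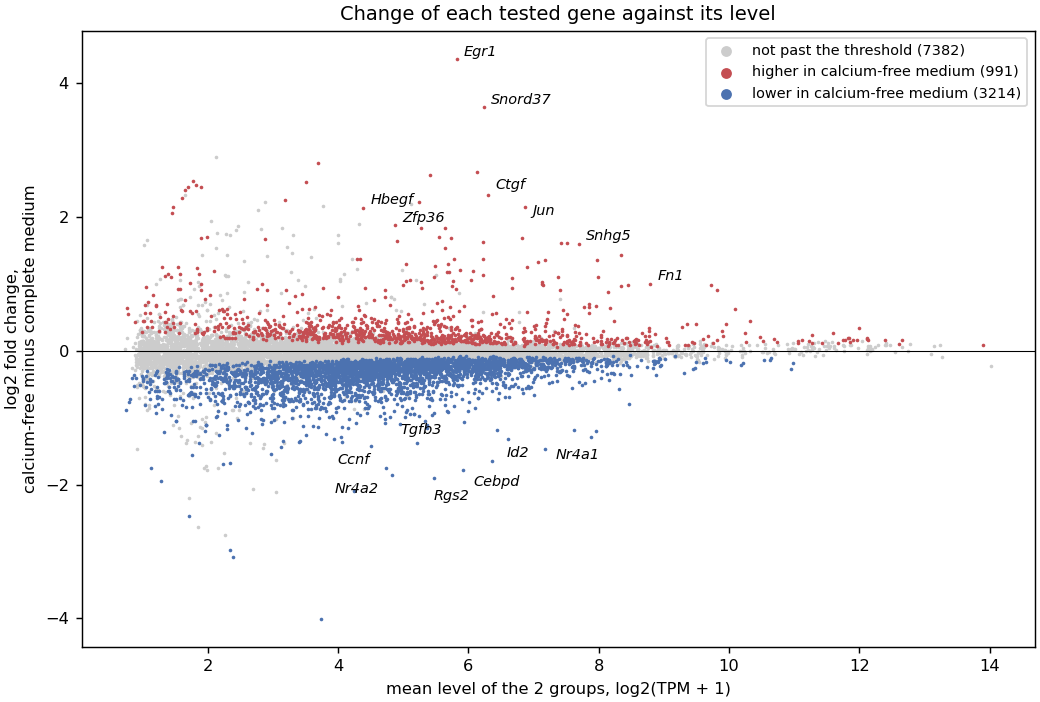
Log2 fold change of each of 11587 tested genes, calcium-free minus complete medium, against the mean level of the groups in log2(TPM + 1). Red points passed the threshold as higher (991) and blue points as lower (3214), and most of the blue points lie within 1 log2 unit of 0.

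A second yardstick was the spread among untreated cells. Each called gene was also placed against the 10 further untreated libraries. Untreated here means without a membrane-damaging treatment, although the siCTR libraries received a control siRNA. The siCTR and noko groups form the other untreated MLKL libraries used below. Any difference in the handling of these groups cannot be told apart from a difference in medium. Both calcium-free libraries were above all 10 for 225 of the 991 genes called higher (22.7%), and below all 10 for 866 of the 3214 called lower (26.9%). These were 1.94% and 7.47% of the genes tested. Among the strong changes outside small RNA rows, 25 of 40 rises and 54 of 64 falls lay beyond all 10. Of the other strong changes, 14 rises and 10 falls ended within the range of the 10, and Cyr61 rose to a level still below it.

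Immediate early genes split into a part that rose and a part that fell. Of 24 measured, 13 were higher, 6 lower and 5 did not pass (median log2 fold change of the list 0.33, and 14 higher and 6 lower after centring). Among the 13, 9 were above all 10 other untreated libraries, and none of the 6 lower genes was below them. The zinc-finger transcription factor gene Egr1 had the largest rise of any named gene. Egr1 was 4.32 and 4.19 TPM in complete and 105 and 108 TPM in calcium-free medium, a log2 fold change of 4.35 (SE 0.067, limma adjusted p = 2.12e-21). The groups were far apart, and the other untreated libraries ran from 6.05 to 31.2 TPM.

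The AP-1 subunit gene Jun was 41.0 and 43.4 TPM in complete and 187 and 192 TPM in calcium-free medium (log2 fold change 2.14, SE 0.052, limma adjusted p = 1.71e-17). Its partner Fos stayed low, at 0.674 and 0.835 against 4.11 and 5.26 TPM (log2 fold change 1.69, SE 0.0998). Zfp36, which encodes tristetraprolin, a protein that binds AU-rich elements and speeds mRNA decay, was 12.6 and 10.6 against 44.3 and 45.8 TPM (log2 fold change 1.87). In all 3 genes the calcium-free libraries stood above both complete-medium libraries and above the 10 others, whose highest values were 122 TPM for Jun, 1.38 TPM for Fos and 20.3 TPM for Zfp36. Egr2 (log2 fold change 1.24), Klf6 (0.94), Csrnp1 (0.93) and Junb (0.61), all transcription regulators, rose and were likewise above the 10. Ier3, a stress-inducible survival gene, rose from 31.1 ± 0.392 to 71.6 ± 4.58 TPM (SD, n = 2), which is inside the range of the others, 32.7 to 96.2 TPM, and against parental cells it did not pass (0.04).

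A pair of feedback genes rose with them. Ppp1r15a encodes GADD34, which directs dephosphorylation of the translation factor eIF2alpha, and was 20.2 and 21.8 against 76.9 and 77.4 TPM (log2 fold change 1.83, SE 0.053, limma adjusted p = 1.67e-16). Dusp1, a phosphatase that switches off p38, JNK and ERK kinases, was 29.5 and 28.2 against 72.1 and 71.9 TPM (log2 fold change 1.29, SE 0.056). The highest of the other untreated libraries was 26.4 TPM for Ppp1r15a and 36.5 TPM for Dusp1, so both calcium-free libraries were above all of them.

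The promoters of Dusp1, Ppp1r15a and Zfp36 are shown beside that of Nr4a1, an immediate early gene that fell, because these rapidly inducible genes moved in opposite directions. Each is the 250 bases before the RefSeq start (GRCm38.p6), 5′ to 3′ on the gene's strand: chr17:26508473-26508722 (minus) for Dusp1, chr7:45526269-45526518 (minus) for Ppp1r15a, chr7:28379229-28379478 (minus) for Zfp36 and chr15:101266596-101266845 (plus) for Nr4a1. Capitals mark the cAMP response element TGACGTCA in Dusp1 and Ppp1r15a, the CArG box bound by SRF in Zfp36, and the near-relative TGCGTCA in Nr4a1, which was searched for after the sequences were seen.
Dusp1: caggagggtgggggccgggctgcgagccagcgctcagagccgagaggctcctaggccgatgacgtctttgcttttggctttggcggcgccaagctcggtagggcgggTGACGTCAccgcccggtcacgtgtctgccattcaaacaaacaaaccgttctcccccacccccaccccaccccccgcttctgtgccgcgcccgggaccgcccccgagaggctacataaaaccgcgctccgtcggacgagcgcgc
Ppp1r15a: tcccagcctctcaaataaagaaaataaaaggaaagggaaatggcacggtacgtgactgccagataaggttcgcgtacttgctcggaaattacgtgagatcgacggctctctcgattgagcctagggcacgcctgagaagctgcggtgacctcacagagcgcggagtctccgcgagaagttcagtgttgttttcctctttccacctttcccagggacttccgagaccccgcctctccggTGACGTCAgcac
Zfp36: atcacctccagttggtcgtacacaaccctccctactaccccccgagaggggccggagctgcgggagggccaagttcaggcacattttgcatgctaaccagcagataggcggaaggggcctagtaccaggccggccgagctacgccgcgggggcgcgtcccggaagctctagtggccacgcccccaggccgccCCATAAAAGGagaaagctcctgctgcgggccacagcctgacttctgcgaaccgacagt
Nr4a1: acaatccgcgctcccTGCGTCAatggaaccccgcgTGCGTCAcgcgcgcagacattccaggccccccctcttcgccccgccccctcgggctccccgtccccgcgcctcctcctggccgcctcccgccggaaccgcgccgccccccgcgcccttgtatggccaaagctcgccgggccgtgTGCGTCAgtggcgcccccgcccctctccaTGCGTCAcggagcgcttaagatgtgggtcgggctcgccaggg
Of 11587 tested genes 9131 had a promoter in the RefSeq table. The 8 letters of the cAMP response element, which reads the same on both strands, were in 2.91% of these promoters. They were in 5 of 27 promoters of genes at least 2-fold higher (Ccnl1, Dusp1, Epha2, Gm11974 and Ppp1r15a) and 3 of 45 of genes at least 2-fold lower (Cbx8, Irf2bpl and Ranbp6). The CArG box, searched on both strands, was in 1.07% of all promoters. It was in 1 of 27 promoters of the higher set (Zfp36) and 1 of 45 of the lower set (Dnm3os). TGCGTCA, on either strand, was in 3.3% and has 4 matches in the Nr4a1 window. It was in 1 of 27 promoters of the higher set (Snhg12) and 1 of 45 of the lower set (Nr4a1). A match is a description of the letters, not evidence of binding.

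The Nr4a orphan nuclear receptors, known as targets of calcium, cAMP and CREB signals, were the immediate early genes that fell most. Nr4a1 was 213 and 209 TPM in complete and 75.1 and 76.9 TPM in calcium-free medium (log2 fold change -1.46, SE 0.056, limma adjusted p = 2.65e-14). Nr4a2 was 43.7 and 43.5 against 10.8 and 11.9 TPM (log2 fold change -1.86, SE 0.049). Nr4a3 was 4.47 and 3.67 against 0.778 and 0.650 TPM (log2 fold change -1.56). For all 3 the groups did not overlap, but the calcium-free level lay within the range of the 10 other untreated libraries, whose medians were 70.4, 13.7 and 1.36 TPM. Against the other untreated MLKL libraries as control, Nr4a2 gave 0.08 (adjusted p = 0.142), and against parental cells Nr4a1 gave 0.11 (adjusted p = 0.0937), so these falls did not hold against every control.

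Across the list of calcium, NFAT and CREB responsive genes, falls outnumbered rises. Among all tested genes 27.7% were lower and 8.55% higher, or 16.2% and 21.1% after centring. Of 18 measured, 2 rose, 10 fell and 6 did not pass (list median -0.24, and 3 rose and 5 fell after centring). The rises were Dusp1 and Ptgs2. The falls included Pde4d, a phosphodiesterase that degrades cAMP, at 22.9 and 23.2 against 8.74 and 7.92 TPM (log2 fold change -1.37), and the kinase Sik1 (-0.68). Sik1 was -0.006 against the other untreated MLKL libraries (adjusted p = 0.937) and reversed to 0.51 against parental cells. None of the 10 lower genes was below all 10 other untreated libraries.

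**Figure D2:**
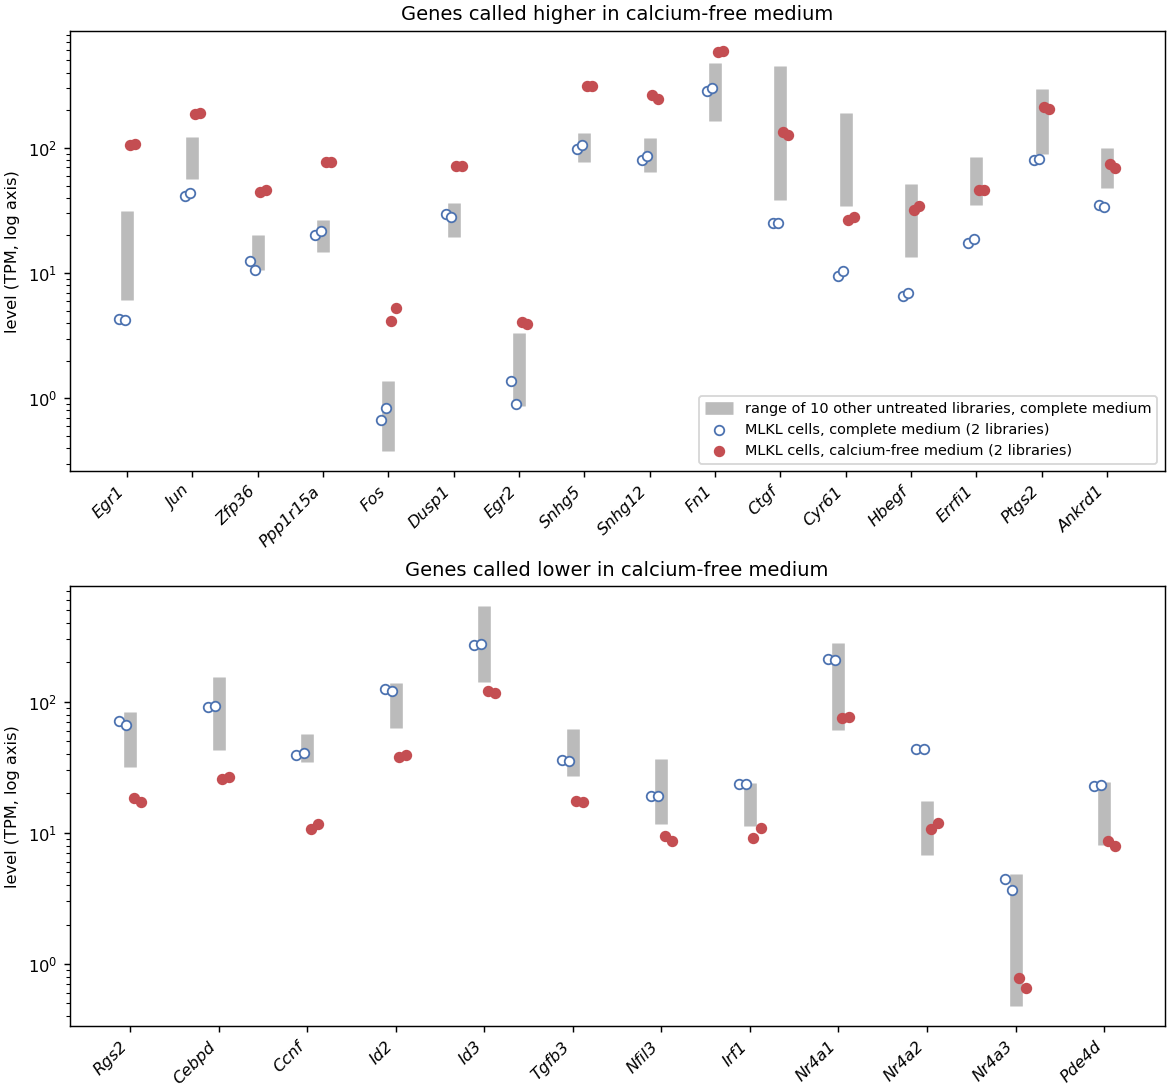
Level in TPM (log axis) of genes called higher (top) and lower (bottom) in calcium-free medium, with each library as a point: open blue for complete and red for calcium-free medium. Grey bars span the 10 other untreated libraries. Egr1 at 105 and 108 TPM and Rgs2 at 18.4 and 17.1 TPM lie outside the grey bar, while Ctgf, Hbegf, Nr4a1 and Nr4a2 in calcium-free medium lie inside it.

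Some targets of YAP and TEAD, the transcription pair that senses cell shape and attachment, were also higher. Of 16 measured, 7 were higher, 3 lower and 6 did not pass (list median 0.09, and 11 higher and 2 lower after centring). Ctgf, a secreted matricellular protein gene, was 25.1 and 25.2 TPM in complete and 133 and 128 TPM in calcium-free medium (log2 fold change 2.33, SE 0.029, limma adjusted p = 7.61e-23). Cyr61, its relative, was 9.44 and 10.3 against 26.3 and 28.2 TPM (log2 fold change 1.38), and the cardiac ankyrin repeat gene Ankrd1 was 35 and 33.9 against 74.7 and 69.4 TPM (1.04).

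None of the 7 rises in this list went beyond the other untreated cells. Those cells held 38.5 to 453 TPM of Ctgf, 34.4 to 188 TPM of Cyr61 and 47.6 to 99.99 TPM of Ankrd1, so that both groups were below all 10 for Cyr61 and only the complete-medium group for Ctgf and Ankrd1. Against the other untreated MLKL libraries the differences were reversed, at -1.27 for Ctgf, -2.69 for Cyr61, -0.37 for Ankrd1 and -1.16 for the junction protein gene Amotl2 (0.74 against its own control). Against parental cells Cyr61 gave -0.40.

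ERK feedback genes showed the same dependence. Of 19 measured, 10 were higher, 5 lower and 4 did not pass (11 and 3 after centring), and Dusp1 alone of the 10 was above all other untreated libraries. The EGF receptor ligand Hbegf was 6.56 and 6.95 against 31.7 and 34.3 TPM (log2 fold change 2.13, SE 0.062), and Errfi1, an inhibitor of that receptor, 17.4 and 18.7 against 45.9 and 45.7 TPM (1.30). The ERK inhibitor gene Spry4 rose by 1.25 from a level under 1 TPM. From the calcium, NFAT and CREB list rather than this one, the inducible cyclooxygenase gene Ptgs2 was 79.9 and 81.0 against 210 and 205 TPM (1.36). Against the other untreated MLKL libraries these were -0.52 for Hbegf, -0.71 for Errfi1, -0.25 for Ptgs2 and -0.62 for Spry4. The ERK phosphatase gene Dusp7 went the other way, from 36.9 ± 0.765 to 19.4 ± 0.318 TPM (SD, n = 2, log2 fold change -0.89), and both groups were below all 10 others, which ran from 39.0 to 60.0 TPM. Of 19 SRF-driven actin and contractile genes, 6 were higher, 2 lower and 11 did not pass (10 and 2 after centring), and beta-actin (Actb) was 2158 ± 39.3 in complete and 1788 ± 8.92 TPM in calcium-free medium (SD, n = 2, log2 fold change -0.27).

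**Figure D3:**
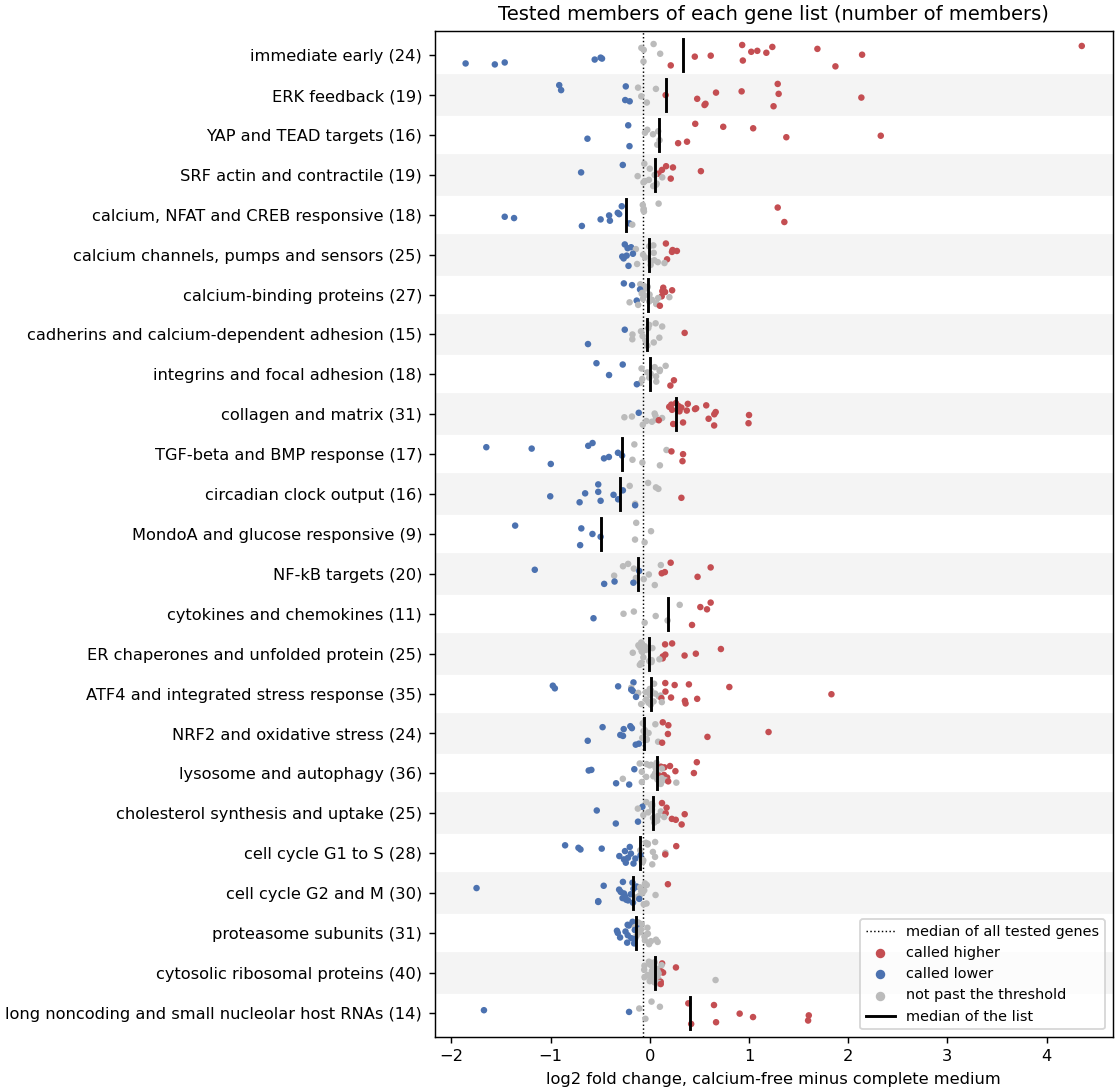
Log2 fold change, calcium-free minus complete medium, of the tested members of 25 gene lists. Each point is a gene, red if called higher, blue if called lower and grey if not past the threshold, the black bar is the median of the list, and the dotted line is the median of all tested genes (-0.07). Matrix genes lie mostly to the right of the dotted line and clock, MondoA and TGF-beta genes mostly to its left.

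Genes that handle calcium itself moved little. Of 25 channel, pump and sensor genes measured, 5 were higher, 8 lower and 12 did not pass, but the split was 8 and 2 after centring. Itpr3, an inositol trisphosphate receptor that releases calcium from the endoplasmic reticulum, went from 31.1 ± 0.245 to 36.5 ± 0.875 TPM (SD, n = 2, log2 fold change 0.22), and the endoplasmic reticulum calcium pump Atp2a2 from 148 ± 2.09 to 166 ± 2.25 TPM (0.16). The plasma membrane calcium pump Atp2b1, which exports calcium, fell from 48.2 ± 1.41 to 40.3 ± 1.5 TPM (-0.25). The store-operated channel Orai1 was 11.8 and 12.4 against 9.94 and 9.64 TPM (log2 fold change -0.28, adjusted p = 0.0254, and 0.157 after centring). Its activator Stim1 was 12.6 and 13.2 against 13.7 and 15.1 TPM and did not pass (log2 fold change 0.15, adjusted p = 0.108), though it did after centring (0.25). Against parental or other MLKL cells the Atp2a2 value was reversed (-0.27 and -0.21), and Itpr3 did not pass against parental cells (0.09).

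Among 27 genes of other calcium-binding proteins, 6 were higher, 4 lower and 17 did not pass (9 and 2 after centring). The chaperone calreticulin (Calr) had the largest rise of the 6, with a log2 fold change of 0.23. Of 15 cadherins and their partners, 1 was higher, 2 lower and 12 did not pass (5 and 2 after centring). N-cadherin (Cdh2), a classical cadherin of fibroblasts, was 59.2 and 60.8 against 60.2 and 59.4 TPM, a log2 fold change of -0.005 that did not pass (adjusted p = 0.945) and took a positive sign after centring (0.10). Cdh11 was 1.02 and 0.964 against 1.05 and 1.10 TPM and did not pass. The protocadherin Pcdh7 fell from 52.0 ± 0.506 to 33.4 ± 1.72 TPM (SD, n = 2, log2 fold change -0.62), and the cadherin-binding beta-catenin gene Ctnnb1 fell from 494 ± 5.27 to 415 ± 4.56 TPM (-0.25, and 0.03 against parental cells).

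Most extracellular matrix genes listed were higher. Of 31 collagen and matrix genes measured, 21 were higher, 1 lower and 9 did not pass (list median log2 fold change 0.26). After centring 25 were higher and 0 lower, and after quantile normalization 22 and 0. Fibronectin (Fn1), which links cells to the matrix through integrins, was 286 and 301 TPM in complete and 585 and 591 TPM in calcium-free medium (log2 fold change 1.00, SE 0.041, limma adjusted p = 7.03e-14), and the highest other untreated library held 474 TPM. Collagen I (Col1a1) was 182 and 187 against 271 and 278 TPM (log2 fold change 0.57), also above the others, whose highest was 247 TPM. Both calcium-free libraries were higher than every other untreated library for 6 of the 21.

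Further matrix rises ended inside the range of the other untreated cells. The adhesion-modulating glycoprotein Thbs1 was 91.2 and 94.2 against 187 and 185 TPM (log2 fold change 1.00), tenascin C (Tnc) rose by 0.65 on the log2 scale, Col6a3 was 46.1 and 46.7 against 75.0 and 73.1 TPM (0.66), and fibrillin (Fbn1) was 8.41 and 9.07 against 14.7 and 13.9 TPM (0.65). Against parental cells Tnc gave -0.45, Fbn1 0.001 and Col6a3 0.07, and against the other untreated MLKL libraries Thbs1 gave 0.06 (adjusted p = 0.163). Of 18 integrin and focal adhesion genes, 2 were higher and 4 lower (10 and 3 after centring).

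Several TGF-beta and BMP response genes fell. Of 17 measured, 3 were higher, 9 lower and 5 did not pass (list median -0.28, and 5 and 9 after centring), and 8 of the 9 were below all 10 other untreated libraries. The inhibitors of DNA binding led, which are BMP targets that restrain basic helix-loop-helix factors. Id2 was 125 and 121 TPM in complete and 38.1 and 39.3 TPM in calcium-free medium (log2 fold change -1.65, SE 0.044, limma adjusted p = 4.83e-17), with the others between 63.4 and 141 TPM. Id3 was 271 and 274 against 121 and 117 TPM (log2 fold change -1.19), with the others from 141 to 536 TPM. Id1 was 33.4 and 31.5 against 21.9 and 19.6 TPM (-0.62), but against parental cells it was -0.13 and did not pass (adjusted p = 0.101).

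The ligand gene Tgfb3 was 36.3 and 35.5 against 17.7 and 17.3 TPM (log2 fold change -1.0, SE 0.049), with the others from 27.4 to 61.8 TPM. The signal transducer Smad3 fell from 31.9 ± 0.0326 to 22.9 ± 0.851 TPM (SD, n = 2, -0.46). The higher members included Smad7, an inhibitor of the pathway (log2 fold change 0.33), and Ltbp1, which stores the latent ligand in the matrix (0.22). Smad7 was -0.78 against the other untreated MLKL libraries and Ltbp1 -0.34 against parental cells.

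Several single regulators fell by more than 3-fold and left the range of all other untreated libraries. Rgs2, which shuts off Gq-coupled receptor signalling, was 72 and 66.2 TPM in complete and 18.4 and 17.1 TPM in calcium-free medium (log2 fold change -1.90, SE 0.060, limma adjusted p = 7.57e-16), and the lowest other library held 31.8 TPM. The transcription factor gene Cebpd was 91.3 and 93.8 against 25.9 and 26.7 TPM (log2 fold change -1.78, SE 0.082), with the lowest other at 42.7 TPM. The cyclin F gene Ccnf, part of a ubiquitin ligase of G2, was 39.2 and 40.7 against 10.8 and 11.7 TPM (-1.75), with the lowest other at 35.1 TPM. In these 3 genes the groups were separated by more than the whole range within either.

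Low-abundance transcripts showed the same pattern. The zinc-finger gene Zfp87 was 6.02 and 6.29 against 1.26 and 1.17 TPM (log2 fold change -1.69), and Mir17hg, host of the miR-17-92 cluster, 7.91 and 5.49 against 1.43 and 1.34 TPM (-1.67). Dnm3os, the antisense host of miR-199a and miR-214, was 10.9 and 10.5 against 2.97 and 3.08 TPM (-1.54). All 3 were below every other untreated library. Dnm3os lies opposite Dnm3, and no source used here gives the strand setting of the counting, so reads of the 2 genes may not be separated.

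Circadian output genes were mostly lower. Of 16 measured, 1 was higher, 10 lower and 5 did not pass (list median -0.29, and 2 and 8 after centring). The repressor Nfil3 was 19.2 and 19.1 against 9.54 and 8.61 TPM (log2 fold change -1.0, SE 0.057), below the lowest other library at 11.7 TPM. Bhlhe40 went from 24.9 ± 0.194 to 17.1 ± 0.548 TPM (SD, n = 2, -0.52), also below the others. The core repressor Per2 (-0.71) and the output factor Dbp (-0.65) fell but stayed within the range of other untreated cells. Cry2 fell by 0.52. Against the other untreated MLKL libraries Cry2 was 0.12 and Dbp -0.06 (adjusted p = 0.729). The 1 higher member was the nuclear receptor Nr1d1 (0.32).

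Of 9 genes listed under MondoA and glucose response, 0 were higher, 5 lower and 4 did not pass. The counts of higher and lower genes were the same after centring and after quantile normalization. The count of 0 is from limma, and at an unadjusted p under 0.05 it was 0 higher and 6 lower. The alpha-arrestin Arrdc3, an adaptor for receptor endocytosis, was 14.1 and 14.1 against 5.36 and 4.46 TPM (log2 fold change -1.36, SE 0.080), below the lowest other library at 6.10 TPM. Txnip, which limits glucose uptake, was 86.7 and 87.2 against 53.9 and 52.2 TPM (-0.70), within the others, and gave 0.07 against the other untreated MLKL libraries. Arrdc4 (-0.69) and Klf10 (-0.50) fell as well, though Klf10 did not pass against parental cells (-0.07).

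Among proliferation genes more were lower than higher as deposited, as among all tested genes (27.7% lower and 8.55% higher). After centring those shares of all genes were 16.2% and 21.1%. Of 30 genes of G2 and mitosis, 1 was higher, 18 lower and 11 did not pass, with a median of -0.17 (2 and 10 after centring). The mitotic kinase Plk1 went from 66.5 ± 0.762 to 46.1 ± 0.862 TPM (SD, n = 2, log2 fold change -0.52), cyclin A2 (Ccna2) from 179 ± 3.76 to 130 ± 0.213 TPM (-0.46) and the spindle protein Nusap1 from 52.9 ± 2.37 to 36.6 ± 2.51 TPM (-0.52). Plk1, Ccnf and the mitotic kinase gene Aurka, named after its value was seen, were the 3 of the 18 below all other untreated libraries. Of 28 genes of the G1 to S transition, 2 were higher and 14 lower, against 7 and 7 after centring. Cyclin E2 (Ccne2) was 27.4 and 26.7 against 13.4 and 15.9 TPM (-0.85), Cdca7 fell by 0.72 and the cyclin-dependent kinase inhibitor gene Cdkn2c by 0.70.

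The integrated stress response was uneven. Of 35 ATF4 and stress response genes, 11 were higher and 7 lower (20 and 4 after centring), and Ppp1r15a was the 1 rise beyond all other untreated cells. Atf4 itself was 617 and 622 against 820 and 809 TPM (log2 fold change 0.39), and the glutathione-degrading enzyme gene Chac1 rose by 0.80, both inside the range of the others. Against the other untreated MLKL libraries Chac1 gave -0.30. The mTORC1 inhibitor gene Ddit4 went down, at 56.1 and 57.2 against 27.4 and 30 TPM (-0.96), below the lowest other at 53.5 TPM, and Cebpb fell by 0.98.

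Of 25 endoplasmic reticulum chaperone and unfolded protein genes, 8 were higher, 0 lower and 17 did not pass (list median -0.005, and 12 higher and 0 lower after centring). At an unadjusted p under 0.05, limma gave 9 higher and 2 lower. Hspa5 (BiP) was 545 and 545 against 696 and 696 TPM (log2 fold change 0.35), Dnajb9, its co-chaperone, 33.2 and 34.1 against 58.8 and 53.4 TPM (0.72), and Herpud1 52.4 to 57.5 against 74.8 to 77.4 TPM (0.46). Dnajb9 was above all other untreated libraries. Against other controls Hspa5 did not pass for parental cells (0.09) and Calr was reversed (-0.10 against parental and -0.12 against other MLKL cells). Of 18 heat shock genes, 7 were higher and 4 lower (10 and 3 after centring), with the constitutive chaperone Hspa8 at 3606 ± 27.7 in complete and 4545 ± 47.2 TPM in calcium-free medium (SD, n = 2, 0.33). The falls included larger changes, at -0.83 for Hspa1a, -0.55 for Dnajb4 and -0.51 for Hspa1b. None of the 4 lower genes was below all other untreated libraries.

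Oxidative stress genes went both ways. Of 24 NRF2 and oxidative stress genes, 6 were higher and 9 lower, against 8 and 5 after centring. Hmox1 was 39.8 and 39.6 against 87.7 and 97.3 TPM (log2 fold change 1.20), within the other untreated libraries and -0.22 against the other MLKL ones. Sulfiredoxin (Srxn1) fell from 137 ± 4.48 to 88.8 ± 0.372 TPM (SD, n = 2, -0.62) and the glutathione synthesis enzyme Gclc from 40.5 ± 0.0127 to 28.8 ± 1.53 TPM (-0.48), both below all 10 others. Osgin1 rose by 0.58, above the others. Of 18 p53 targets, 3 were higher and 8 lower (3 and 7 after centring). Plk3, a stress kinase, was 10.8 and 9.63 against 27.5 and 28.5 TPM (1.37), and -0.20 against the other MLKL libraries. Its relative Plk2 fell by 0.63, Cdkn1a by 0.47 and Trp53inp1 by 0.99, and the last 2 were reversed against parental cells (0.24 and 1.05).

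Inflammatory genes went both ways. Of 11 cytokine and chemokine genes measured, 4 were higher, 1 lower and 6 did not pass (5 and 1 after centring), and none of the 5 went beyond the other untreated cells. Ccl2, the monocyte chemoattractant, was 136 and 140 against 210 and 213 TPM (log2 fold change 0.61), Csf1 118 and 120 against 177 and 178 TPM (0.58) and Ccl7 41.2 and 41.3 against 56.0 and 62.5 TPM (0.51). Against the other untreated MLKL libraries these were -0.01, -0.40 and -0.28. The neutrophil chemokine Cxcl1 was 7.70 and 7.56 against 6.30 and 7.17 TPM and did not pass (-0.16, adjusted p = 0.226), and Il11 fell by 0.57. Of 20 NF-kB targets, 5 were higher and 5 lower (7 and 2 after centring). The 5 lower are a share close to the 27.7% lower among all tested genes, of which 8.55% were higher. After centring 16.2% of all tested genes were lower and 21.1% higher. The inhibitor Nfkbia was 46.9 and 46.8 against 50.7 and 51.4 TPM (0.12), and -0.02 against parental cells. The interferon factor Irf1 fell, from 23.5 and 23.7 to 9.15 and 10.9 TPM (-1.16, SE 0.107), below the lowest other library at 11.3 TPM.

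In housekeeping and metabolic groups the counts of called genes depended on the scaling. Of 31 proteasome subunit genes, 0 were higher and 15 lower as deposited, 3 and 5 after centring, and 1 and 14 after quantile normalization, with Psmd11 at -0.30. At an unadjusted p under 0.05, limma gave 1 higher and 18 lower. Of 37 nuclear-encoded oxidative phosphorylation genes, 0 were higher and 10 lower as deposited, a share close to the 27.7% lower among all tested genes, 3 and 1 after centring, and 0 and 7 after quantile normalization, with Uqcrb, a complex III subunit, at -0.57. Unadjusted, limma gave 0 higher and 14 lower. Of 40 cytosolic ribosomal protein genes 6 were higher and 0 lower as deposited, 28 and 0 after centring, and 3 and 4 after quantile normalization, and unadjusted limma gave 8 and 0. Of 25 cholesterol genes 7 were higher and 4 lower (14 and 2 after centring), with the synthesis enzyme Hmgcs1 at 142 and 140 against 97.8 and 96.4 TPM (-0.53) and Insig1, which retains the sterol-sensing complex in the endoplasmic reticulum, at 0.16. The Insig1 value was reversed against parental cells (-0.70). Of 36 lysosome and autophagy genes 10 were higher and 5 lower (22 and 3 after centring), and 6 of the 10, among them the lysosomal enzyme Gla (0.45) and the autophagy receptor Sqstm1 (0.19), were above all other untreated libraries.

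Some host genes of small nucleolar RNAs (snoRNAs), the guides of ribosomal RNA modification, were among the strongest rises. Of 14 long noncoding and host RNAs listed, 8 were higher and 2 lower, with a median log2 fold change of 0.40 (9 and 2 after centring), and 7 of the 8 were above all other untreated libraries. Snhg5 was 98.5 and 105 TPM in complete and 309 and 311 TPM in calcium-free medium (log2 fold change 1.6, SE 0.072, limma adjusted p = 3.75e-13), and the highest other library held 131 TPM. Snhg12 was 80.8 and 86.3 against 265 and 246 TPM (1.6, SE 0.086), with the highest other at 119 TPM. Snhg17 rose by 1.04, Snhg1 by 0.91 and Gas5 by 0.65, each from libraries that did not overlap. Taken as a full family, 14 Snhg genes were tested, Gas5 counted among them. Of these 7 were higher and 2 lower, with a median of 0.26 (7 and 2 after centring). Mir17hg fell, as given above.

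Rows for the snoRNAs themselves were grouped after the values were seen. Of 83 snoRNA rows tested, 27 were higher, 1 lower and the others not past the threshold (group median 0.97, and 31 and 0 after centring). These rows are imprecise: their median SE was 0.56 against 0.07 over all genes, their median length is 90 bases, and poly(A) selection does not capture mature snoRNAs efficiently. Snord37, in an intron of the elongation factor gene Eef2, was 8.4 and 11.9 against 169 and 109 TPM (log2 fold change 3.64, SE 0.56), and Snord32a was 20 and 14.5 against 82.4 and 158 TPM (2.67). Snord66 (2.80, SE 1.05), Snord49b and Snora21 did not pass with a pseudocount of 0.1. Leaving out 1 library moved Snord66 from 1.23 (without complete-medium replicate 2) to 4.38 (without complete-medium replicate 1), and Snord49b did not pass without any 1 of the 4. Reads of a snoRNA row cannot be told from intron reads of its host.

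The host genes were counted by kind, without a test between the kinds. Of 11 hosts typed as noncoding in the annotation used, 7 were higher and 1 lower, with a median log2 fold change of 0.65 (7 and 0 after centring). The 1 lower was Cct6a (-0.16), typed there as a processed transcript, though it encodes a chaperonin subunit. Of 46 protein-coding hosts 15 were higher and 6 lower, with a median of 0.08 (36 and 6 after centring). In Snhg12 all 3 snoRNA rows were higher, with a median of 1.61, Snora44 among them, which did not pass against parental cells (0.97). Eef2 itself was 4163 ± 72.1 in complete and 4730 ± 37.8 TPM in calcium-free medium (SD, n = 2, log2 fold change 0.18). The largest rises among protein-coding hosts were Taf1d, a subunit of the RNA polymerase I factor, at 166 and 156 against 344 and 347 TPM (1.10), and the helicase gene Eif4a2 at 217 and 221 against 434 and 426 TPM (0.97), both above all other untreated libraries. Among the largest rises was also AV051173, a row with no position in the annotation used, at 1.87 and 2.95 against 19.1 and 17.5 TPM (2.52, SE 0.25).

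**Figure D4:**
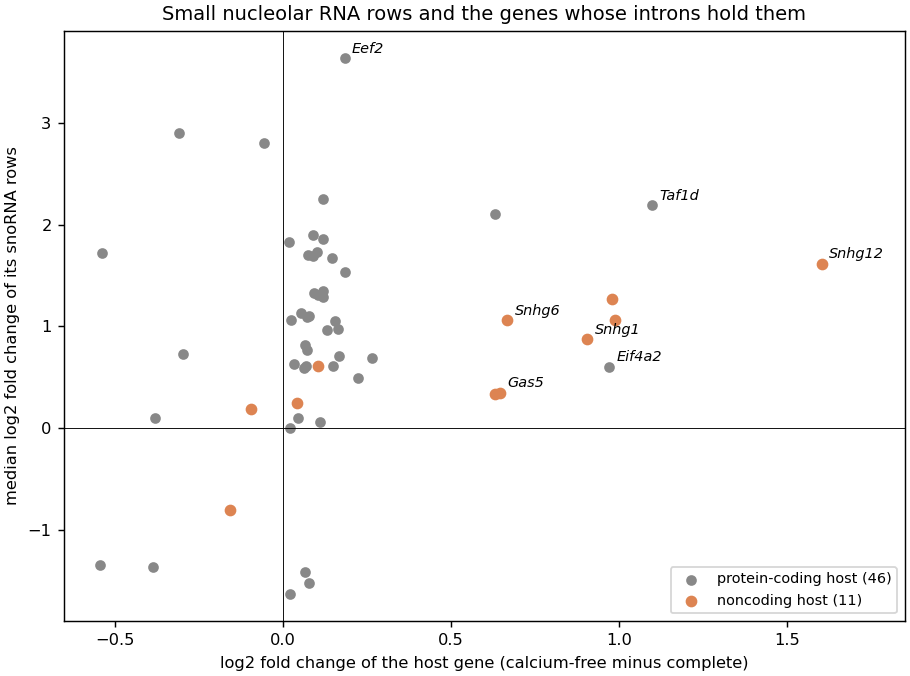
Median log2 fold change of the snoRNA rows of each host gene against that of the host itself, calcium-free minus complete medium. Grey points are 46 protein-coding hosts, whose own values lie mostly near 0. Orange points are 11 hosts typed as noncoding in the annotation, Cct6a among them. Snhg12 is at 1.6 for the host and 1.61 for its snoRNA rows.

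A further 2 libraries in calcium-free medium, from the same cells given AP20187 (100 nM, 1 h), allow the levels to be read a second time beside their complete-medium counterparts with AP20187. These libraries were not part of the comparison above, and no test was made between them here. Rgs2 was 18.8 and 17.6 TPM in calcium-free and 61.9 and 59.2 TPM in complete medium, Cebpd 19.8 and 21.9 against 50.6 and 62.7 TPM, and Id2 30.7 and 32.4 against 62.3 and 57.1 TPM. Snhg5 was 312 and 299 against 144 and 130 TPM, and Arrdc3 5.17 and 4.98 against 14.4 and 12.9 TPM. For these 5 genes the calcium-free libraries stood on the same side in treated and in untreated cells, without overlap. Tgfb3 was closer, at 17.6 and 17.8 against 19.5 and 22.5 TPM, and Fn1 at 637 and 640 against 574 and 610 TPM. Egr1 and Jun were ordered the other way, at 266 and 277 against 825 and 908 TPM for Egr1 and 205 and 229 against 746 and 834 TPM for Jun.

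The calcium-free pattern was then set against treatments that damage the membrane, in NIH3T3 comparisons that share no library with it. They were digitonin, a cholesterol-binding detergent (55 µg/mL, 3 h, parental cells), and release of a GSDMD pore construct by 4OHT (50 nM, 2.5 h). The calcium-free effect differed from the digitonin effect for 7088 of 11822 genes (60%), 2551 with a higher (21.6%) and 4537 with a lower (38.4%) log2 fold change, and from the GSDMD effect for 7878 of 12029 genes (65.5%), 5509 higher (45.8%) and 2369 lower (19.7%) (limma, difference of effects). Digitonin itself changed 73.5% of the genes tested in its own comparison (39.3% higher and 34.2% lower), and GSDMD release 78.6% (20% higher and 58.6% lower). Centring turned the first split to 4788 higher and 3180 lower, and made the second 4078 and 3168. Of 971 genes higher in calcium-free medium and tested in both, 63.7% were also higher with digitonin, which called 39.3% of these genes higher, and they were 14.1% of the digitonin list. Of 976, 37.8% were higher after GSDMD release, which called 19.4%, and they were 16.9% of that list, while 41.2% of the 976 were lower, which it called for 60%. Of 3183 lower genes, 37% were also lower with digitonin (34.6% of genes called) and 45% were higher (39.3% called). Of 3196 lower genes, 66.1% were also lower after GSDMD release (60% called) and 20.5% were higher (19.4% called).

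For Egr1 the log2 fold change was 4.35 in calcium-free medium, 4.53 with digitonin and 3.16 after GSDMD release. The difference from digitonin did not pass (-0.17, adjusted p = 0.125) and that from GSDMD did (1.19). Ppp1r15a was 1.83, 1.76 and 2.97, and Fn1 1.00, 1.16 and 0.89, with no difference past the threshold for Ppp1r15a against digitonin (0.07, adjusted p = 0.432) or Fn1 against GSDMD (0.12, adjusted p = 0.0852). Jun was higher in calcium-free medium than in either (2.14, 1.32 and 0.63), and so was Ctgf, which fell in both others (2.33, -1.37 and -0.37). Against the other untreated MLKL libraries the calcium-free value of Ctgf was reversed (-1.27). Snhg5 rose in calcium-free medium alone of the 3 (1.6, -0.21 and 0.08), with differences of 1.80 and 1.52 past the threshold.

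Others differed in the opposite sense. Cxcl1 did not pass in calcium-free medium (-0.16) but rose by 3.91 with digitonin and by 6.27 after GSDMD release, differences of -4.07 and -6.43. Nr4a1 (-1.46, 1.30 and 2.40), Nr4a2 (-1.86, 1.66 and 1.42), Nfil3 (-1.0, 1.57 and 1.75), Bhlhe40 (-0.52, 2.53 and 2.14) and Srxn1 (-0.62, 2.24 and 2.49) fell without calcium and rose with both kinds of membrane damage, and each difference passed. Against other untreated controls the calcium-free value was 0.11 for Nr4a1 (parental cells) and 0.08 for Nr4a2 (other MLKL libraries). The differences between effects were not refitted with those controls. Hmgcs1 was -0.53, 3.12 and 0.20. Rgs2 (-1.90, -0.13 and -0.41), Id2 (-1.65, 0.02 and -0.30) and Ccnf (-1.75, -0.97 and -1.45) had lower log2 fold changes without calcium than with either, by differences that passed.

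**Figure D5:**
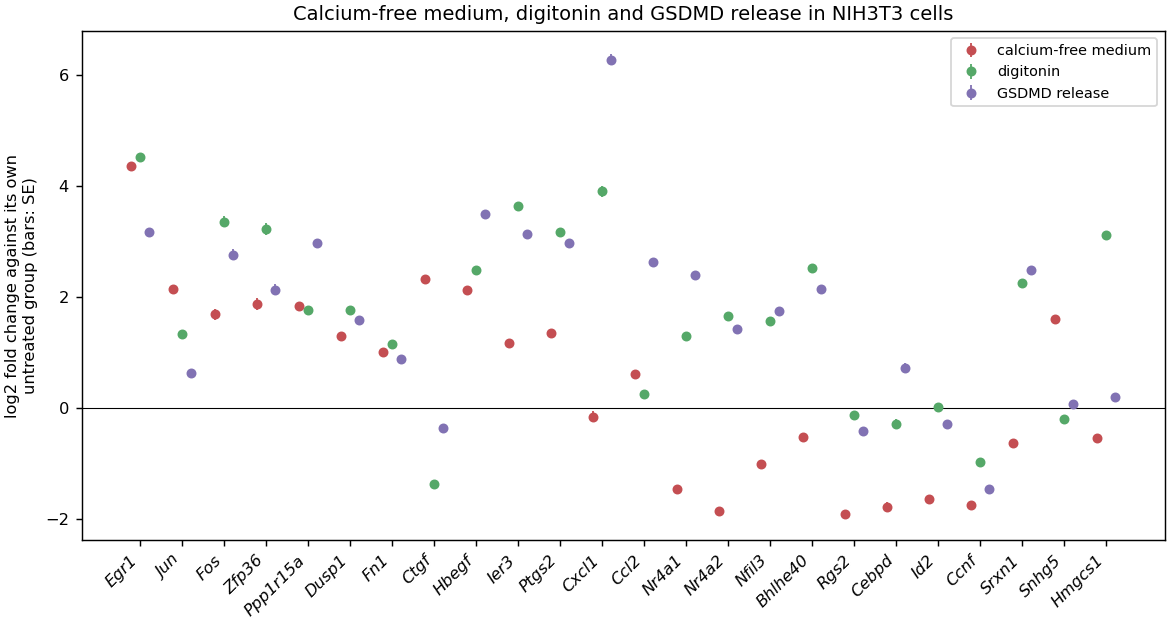
Log2 fold change of 24 genes in calcium-free medium (red), with digitonin (green) and after GSDMD release (purple), each against its own untreated group, with bars for the SE. The 3 points lie close together for Dusp1 and Fn1, the GSDMD point stands apart for Egr1 (below) and Ppp1r15a (above), and the red point is below 0 with both others above it for Nr4a1, Nr4a2, Nfil3, Bhlhe40 and Srxn1.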

How the data were processed

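Poly(A) RNA libraries of NIH3T3 cells were compared. The deposited values are TPM per gene, transcript abundances scaled for length and library total, made by the authors with Salmon, and mm10 is among the genome builds, per the submitters' processing notes. No tool version was found in those notes, and the unit was read from the values, which sum to 999969 to 999982 in the 4 libraries. TPM keeps no read depth, so no counting error can be given, and a large change in abundant genes shifts all others. All 19407 gene rows of the mouse table were read.

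From these, log2(TPM + 1) was fitted with limma 3.58.1 (trend, R 4.3.3) in 1 model over 35 NIH3T3 libraries in 18 groups, with 17 residual degrees of freedom and no replicate block. Genes with at least 1 TPM in at least 2 libraries of a contrast were tested, with Benjamini-Hochberg adjustment over all of them. The model was tested on simulated data. Gene positions and types came from GENCODE (GRCm38) and promoters from RefSeq.

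Named genes were the 15 largest rises and 12 largest falls past the threshold with a mean of at least 5 TPM, and list members. Small RNA rows among them are summarised, and further list members were named after their values were seen. Members and lists were chosen with earlier results of these data known. Alternatives were the scaling, pseudocount, filter, control libraries, libraries in the model, transcript length, replicate block and each replicate left out. Some named items are not reported here.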

Additional observations from a re-analysis of the deposited data

How the results depend on the processing

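Of 11587 tested genes, 4205 passed. Against parental untreated cells as control the total was 7293. The number higher (991) became 2447 after median centring, 1959 after quantile normalization, 1768 with the length trend removed, 1633 against the other untreated MLKL libraries and 2368 against parental cells. The number lower (3214) became 1879, 4925 and 2082 after centring, against parental cells and with the length trend removed. For the difference from digitonin, the number higher (2551) became 4788 after centring and 4256 after quantile normalization. Leaving out 1 library gave totals of 3225 to 3345, with 635 to 799 higher and 2450 to 2660 lower, and 635 was without complete-medium replicate 1. The same for the difference from digitonin was 6539 to 6802 (2253 to 2381 higher, 4244 to 4442 lower) and from GSDMD release 7372 to 7511 (5070 to 5298 higher, 2190 to 2330 lower).

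Log2 fold changes that reversed against the other untreated MLKL libraries were Amotl2 -1.16, Ankrd1 -0.37, Atp2a2 -0.21, Calr -0.12, Ccl2 -0.014, Ccl7 -0.28, Chac1 -0.30, Cry2 0.12, Csf1 -0.40, Ctgf -1.27, Cxcl1 0.0095, Cyr61 -2.69, Epha2 -0.20, Errfi1 -0.71, Hbegf -0.52, Hmox1 -0.22, Insig1 -0.091, Nr4a2 0.075, Plk3 -0.20, Ptgs2 -0.25, Smad7 -0.78, Spry4 -0.62, Txnip 0.069. Against parental cells they were Atp2a2 -0.27, Calr -0.10, Ccl2 -0.15, Cdh2 0.16, Cdkn1a 0.24, Ctnnb1 0.035, Cyr61 -0.40, Insig1 -0.70, Ltbp1 -0.34, Nfkbia -0.016, Nr4a1 0.11, Sik1 0.51, Tnc -0.45, Trp53inp1 1.05. Cdh2, at -0.0049, was 0.10 after centring, 0.059 after quantile normalization, 0.076 with the length trend removed, 0.014 without complete-medium replicate 2 and 0.0043 without calcium-free replicate 2, and -0.024 at the lowest, without complete-medium replicate 1. The cause was not tested. Orai1 did not pass without any 1 of the 4 libraries.

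With the replicate number as a block, 4169 genes passed, 975 higher and 3194 lower, and the differences from digitonin and GSDMD release gave 7075 and 7864. The block changed no call among the 123 genes refitted under it. Deviations of same-numbered libraries correlated at -0.0992, and no label used here says what a shared number stands for, so the numbers were not taken as pairs. The unknown read depth limits all statements on low genes.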

Other observations

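Numbered zinc finger genes, a large family of mostly KRAB repressors grouped here after their values were seen, were counted in calcium-free medium beside all tested genes. Of 270 tested, 9 were higher (3.33%) and 137 lower (50.7%), with a median log2 fold change of -0.25, against 8.55% and 27.7% of all genes, and after centring 24 were higher and 104 lower. Protein-coding genes with 1 exon were lower in 91 of 191 cases (47.6%), those with 2 or 3 exons in 413 of 933 (44.3%) and those with 4 or more in 2539 of 9327 (27.2%). After centring the lower counts were 79, 290 and 1410. Whether these groups share members was not tested.

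Of 32 ribosome biogenesis and Myc target genes, 4 were higher and 11 lower, and 12 and 5 after centring. Of 27 glycolysis and hypoxia genes, 9 were higher and 3 lower, and 12 and 2 after centring. Of 18 membrane repair and ESCRT genes, 0 were higher and 5 lower by limma, against 3 and 2 after centring. The 5 lower are a share close to that of all tested genes. Among all tested genes 8.55% were higher and 27.7% lower, or 21.1% and 16.2% after centring.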
